A study of Danaus plexippus with 36 samples.

Results

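Of the 15130 genes counted in proboscis, antennae and legs of the monarch butterfly (Danaus plexippus), 66 were proboscis-enriched. They were chosen by their level alone. Counts were scaled to a library total of 1000000 (CPM), averaged over the libraries of each tissue, and 0.1 CPM was added to each mean. A gene was kept when its proboscis mean was at least 5 CPM and at least 8 times both the antennal and the leg mean. The same limits set for the other tissues gave 309 genes for antennae and 25 for legs. Because all libraries entered this choice, the difference between proboscis and the other 2 tissues is described here without a test.

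The proboscis of a butterfly is a long coiled tube formed by the joined galeae of the maxillae, through which the adult drinks nectar. Its wall is a layer of epidermis under cuticle and encloses muscles, nerves and tracheae, and it bears sensilla that house taste neurons. Antennae are the main organ of smell, and the legs carry contact taste sensilla with which females test host plants before laying.

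The animals were adults caught in the field, 6 gravid females and 6 males, in 2 labelled batches of 3 females and 3 males each. The groups were proboscis of 6 females and 6 males, antennae of 6 females and 5 males, and legs of 6 females and 6 males. Thus 11 of 12 animals had counts for all 3 tissues. The antennae of male 2 are named in the labels, but no counts for them were among those used here. Each animal is named by its sex and labelled number, every library is 1 animal's tissue, and the labels name no strain and no treatment. Since all females were gravid, sex and reproductive state cannot be told apart. In whole tissue, fewer cells of a type and less RNA per cell cannot be told apart either.

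Depth, in units of 1000000 counts (M), was 1.92 to 53.7 M in proboscis libraries, 0.622 to 24.7 M in antennal libraries and 11.7 to 116.6 M in leg libraries. Summed over libraries, proboscis held 237 M counts, antennae 79.3 M and legs 464 M. The gene identifiers matched 0 entries of the RefSeq gene table for this species, so members are given by identifier, and no gene name, role, location or sequence is printed. For the same reason the tissue labels could not be checked against marker genes. CPM is not scaled by transcript length, so levels are compared for 1 gene at a time, or as shares of a library's counts.

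The members' proboscis means ran from 5.09 to 15485 CPM with a median of 29.2 CPM. A mean of 100 CPM or more was found for 21 members, 10 to 100 CPM for 27, and under 10 CPM for 18. The smaller of the 2 ratios, which the choice held at 8 or more, had a median of 19.2 and reached 2645. It was under 16 for 30 members and 100 or more for 12. It was the ratio to antennae for 34 members and the ratio to legs for 32. Just inside the limit were DPOGS210475, with a smaller ratio of 8.21, and DPOGS208392, with 8.23. Just outside were DPOGS207974, with 7.91, and DPOGS211930, with 7.82.

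**Figure D1:**
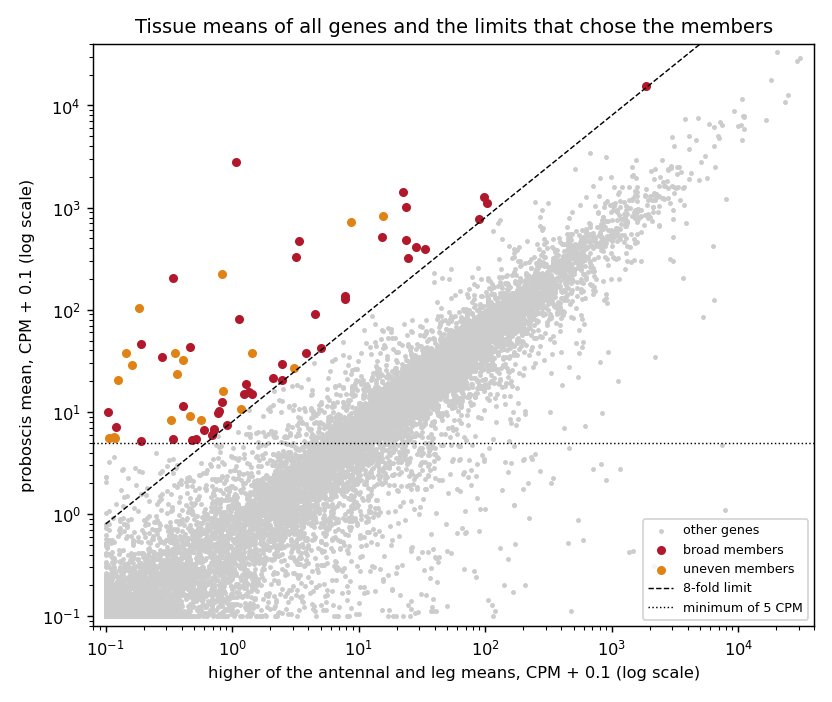
Mean proboscis level of every gene against the higher of its antennal and leg means, both in CPM + 0.1 on log axes. The dashed line is the 8-fold limit and the dotted line the minimum of 5 CPM. The proboscis mean is 100 CPM or more for 21 members, and the member at the upper right, DPOGS208392, lies close to the 8-fold limit. Broad members (red) and uneven members (orange) are separated by how evenly proboscis libraries shared their counts, as the text describes.

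The 66 members together took 3.01% ± 1.24 of a proboscis library's counts (SD, n = 12), against 0.221% ± 0.183 in antennae (SD, n = 11) and 0.127% ± 0.0729 in legs (SD, n = 12). The share ran from 0.507% in the proboscis of female 27 to 5.53% in that of male 2. In antennae it ran from 0.0365% to 0.611%, and in legs from 0.0229% to 0.304%. The proboscis of female 27 thus lay within the antennal range, and the other 11 proboscis libraries lay above every antennal and leg library. By sex, the proboscis share was 2.81% ± 1.34 in females and 3.22% ± 1.22 in males (SD, n = 6 each). By batch, it was 3.52% ± 1.18 in batch 2 and 2.50% ± 1.16 in batch 1 (SD, n = 6 each). Both differences were smaller than the SD within either group.

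**Figure D2:**
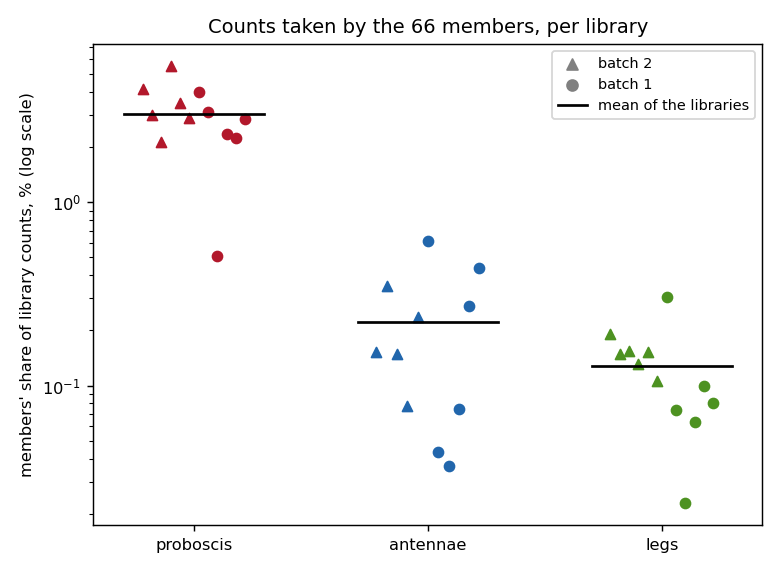
Share of each library's counts taken by the 66 members, in percent on a log axis, by tissue. Each point is 1 library, triangles are batch 2 and circles batch 1, and the line is the mean over libraries. One proboscis library, that of female 27 at 0.507%, lies among the antennal values, and the other 11 lie above both other tissues.

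A single gene, DPOGS208392, held about as many of these counts as all other members together. It had 978 to 25016 CPM in proboscis with a median of 16222 CPM, against 104 to 5727 CPM in antennae with a median of 1255 CPM, and 54.9 to 2274 CPM in legs with a median of 820 CPM. The lowest proboscis libraries, those of female 27 and female 25, overlapped the antennal range, and that of female 27 the leg range too. Within animals, proboscis was the highest of the 3 tissues in 11 of 11 animals. The same 2 females were lowest in every tissue: their antennae had 123 CPM in female 27 and 104 CPM in female 25, and their legs 54.9 CPM in female 27 and 135 CPM in female 25, against at least 486 CPM in all other antennae and at least 484 CPM in all other legs. Among all members this gene had the highest level in any antennal library and in any leg library, both in female 18, whose proboscis was also its highest. It took 1.55% ± 0.721 of proboscis counts (SD, n = 12), 0.188% ± 0.181 of antennal counts (SD, n = 11) and 0.0850% ± 0.0572 of leg counts (SD, n = 12). The other members took 1.46% ± 1.07 in proboscis, 0.0332% ± 0.0146 in antennae and 0.0422% ± 0.0288 in legs.

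The second most abundant member, DPOGS209224, had 159 to 12590 CPM in proboscis with a median of 1641 CPM. In antennae it had 0 to 3.78 CPM, with counts in 5 of 11 libraries that summed to 21, and in legs 0 to 4.37 CPM. The lowest proboscis library was above every library of the other tissues. Its ratio to antennae was 3010 and its ratio to legs 2645, the highest smaller ratio of all members. It varied widely within proboscis, from 159 CPM in female 11 to 12590 CPM in male 2.

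Of the 66 members, 10 had a lowest proboscis library above every antennal and every leg library. The background was 0.121% of the 8277 genes with a proboscis mean of at least 5 CPM, which is these same 10 genes, and since the choice used this contrast nothing is read from it. Proboscis was the highest tissue within the animal in all 11 animals with 3 tissues for 29 members. DPOGS210970 was the member with the smallest share of its summed proboscis CPM in 1 library, 13.3%. It had 19.8 to 73.9 CPM in proboscis with a median of 40.1 CPM, no count in any of 11 antennal libraries, and 0 to 0.423 CPM in legs. The groups did not overlap. Set against a floor of 3 counts over all antennal libraries (0.0378 CPM), its proboscis mean was at least 1220-fold higher than in antennae.

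No antennal count was found for 11 members, while every member had a leg count. Antennae were sequenced less deeply than legs, with 79.3 M counts in all in antennae against 464 M in legs, so an absence in antennae is limited by depth. Of these 11 members 8 were of the uneven kind described next, and 3 were not.

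The members fell into 2 patterns across the 12 proboscis libraries, a division made after their values were seen. For 20 of them, called uneven here, the median over proboscis libraries was under 10% of the mean. For the other 46, called broad, the median was at least 20.2% of the mean. No member lay between 6.41% and 20.2%. The proboscis median of uneven members was under 1 CPM in 18 of 20, so their place among proboscis-enriched genes rested on a few libraries. Some broad members were also concentrated, with up to 68.3% of a member's summed proboscis CPM in 1 library. Of the 46 broad members, 32 met the limits with medians in place of means. All 29 members that were highest in proboscis in every animal were broad. Within broad members proboscis was highest in 8 to 11 of the 11 animals with a median of 11, and within uneven members in 3 to 9 animals with a median of 5.

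**Figure D3:**
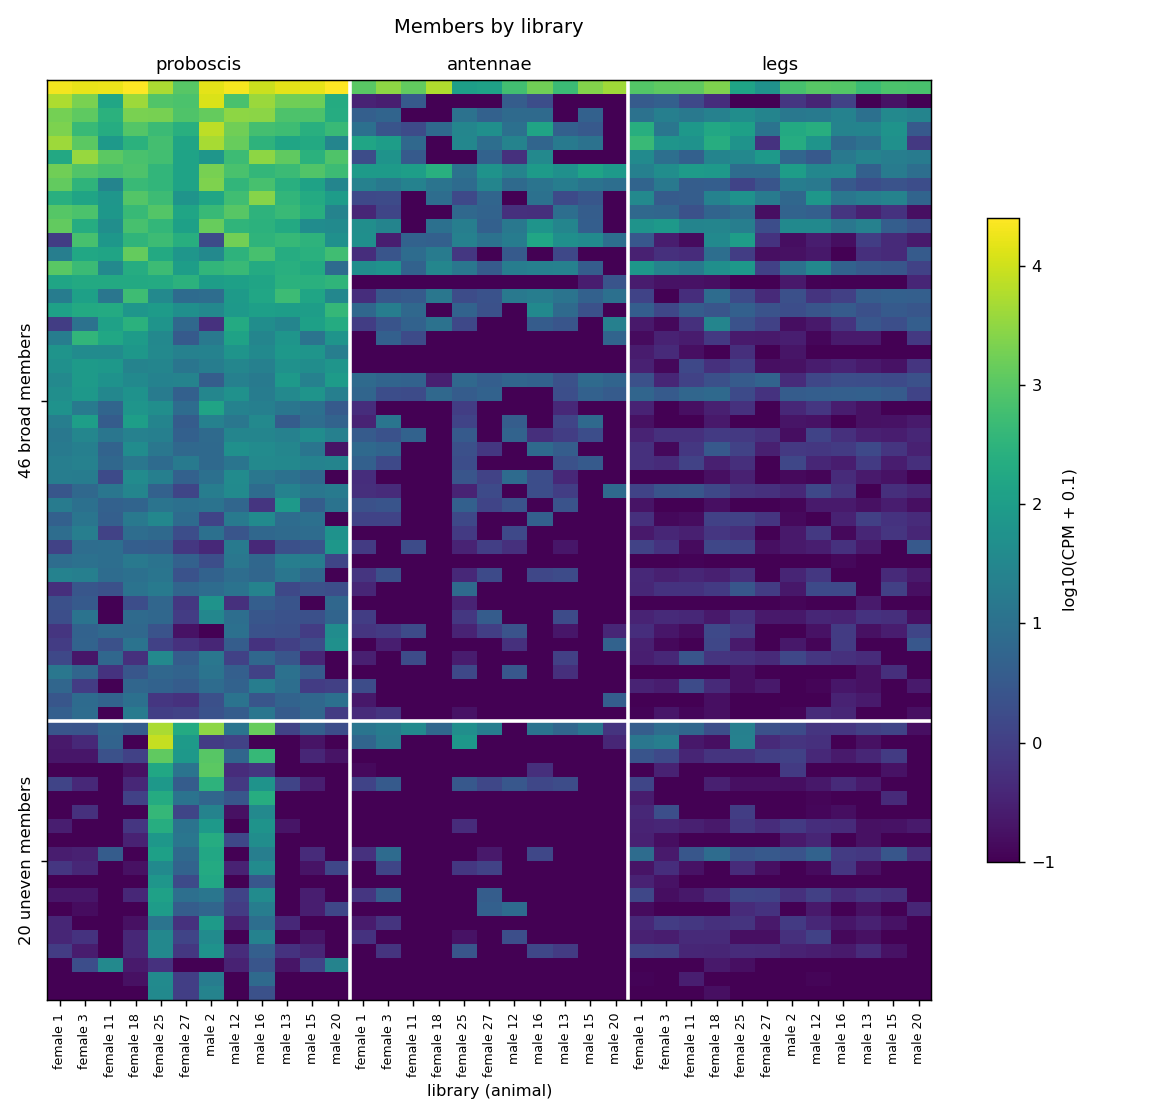
Level of each member (rows) in each library (columns), as log10(CPM + 0.1), with proboscis at the left, antennae in the middle and legs at the right. The 46 broad members are above the white line in order of their proboscis mean and the 20 uneven members below it. Most uneven members are bright in proboscis libraries of females 25 and 27 and males 2 and 16 and dark in most others.

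Most uneven members were high together in 4 proboscis libraries. At 1 CPM or more were 19 of 20 in female 25, 18 in male 2, 18 in male 16 and 15 in female 27, against 1 to 6 in the other 8 proboscis libraries. Their summed level was 16639 CPM in female 25, 6554 CPM in male 2, 2424 CPM in male 16 and 450 CPM in female 27, against 3.27 to 52.2 CPM in the other 8. These 4 libraries held 12.1 to 41.8 M counts, within the range of the others, and they came from both sexes and both batches: the females were in batch 1 and the males in batch 2. In the other tissues of all animals the summed level of the uneven members was 0.814 to 125 CPM in antennae and 0.918 to 52.8 CPM in legs, in both tissues highest in female 25. The top library was female 25 for 9 uneven members, male 2 for 9, male 16 for 1 and female 11 for 1. The last of these, DPOGS202421, had 35.5 CPM in female 11 and 25.2 CPM in male 20, against at most 2.55 CPM in the 4 libraries.

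**Figure D4:**
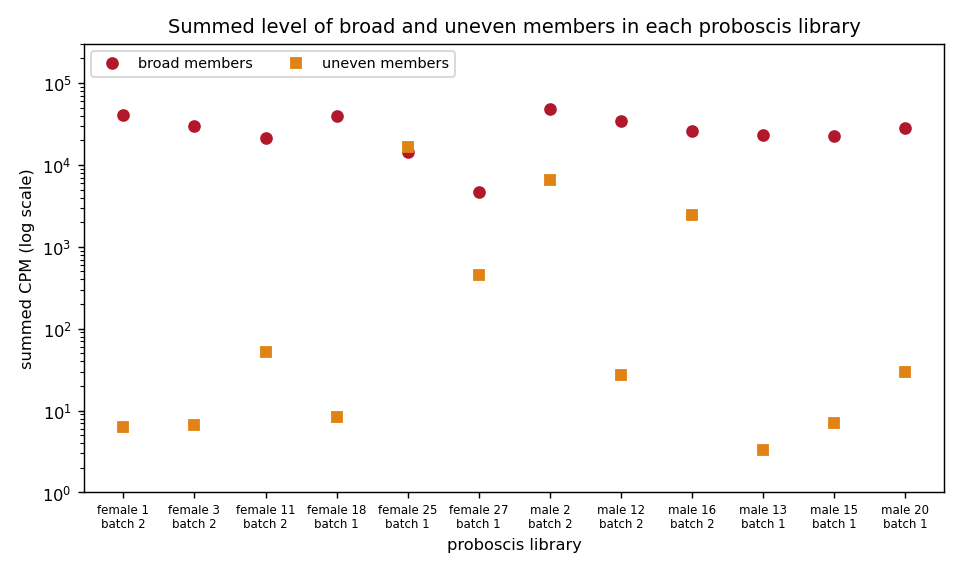
Summed level of the 46 broad members (red circles) and the 20 uneven members (orange squares) in each proboscis library, in CPM on a log axis. The uneven members reach 450 to 16639 CPM in females 25 and 27 and males 2 and 16, and stay at 3.27 to 52.2 CPM in the other 8. The broad members are lowest in female 27, at 4621 CPM.

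DPOGS213644 was the member with the largest share of its proboscis CPM in 1 library, 98.9% in female 25. It had 8498 CPM there, 87.7 CPM in female 27, and at most 5.22 CPM in each of the other 10 proboscis libraries. In antennae it had 0 to 72.8 CPM with counts in 4 of 11 libraries, and in legs 0 to 23.3 CPM, and in both tissues the highest library was again female 25. Without female 25 its proboscis mean was 8.67 CPM, against 716 CPM with it. DPOGS210442 followed, with 86.1% of its proboscis CPM in female 25. It had 385 CPM there, 34.5 CPM in male 16, 26.1 CPM in male 2 and 1.24 CPM in female 27, at most 0.459 CPM in the other 8, and no antennal count. Without female 25 its proboscis mean was 5.67 CPM, against 37.3 CPM with it.

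The 4 libraries ranked the members differently from the rest, which follows at least in part from their being picked by the uneven members. Over the 66 members, Spearman's rho was 0.675 to 0.951 in the 28 pairs among the other 8 proboscis libraries, with a median of 0.878. It was 0.112 to 0.658 in the 32 pairs of one of the 4 with one of the 8, with a median of 0.396. Among the 4 libraries themselves, 6 pairs gave 0.524 to 0.788 with a median of 0.691. These values describe genes chosen in the same libraries, and the 4 libraries were picked by 20 of these genes, so they carry no test. Leaving the 4 libraries out, 47 genes met the limits, of which 42 were members: 41 of the 46 broad and 1 of the 20 uneven. The loss of uneven members follows from how the 4 libraries were picked and is no result.

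Uneven genes were also found outside the members. Of all 8277 genes with a proboscis mean of at least 5 CPM, 39 had a median under 10% of the mean, or 0.471%, and 20 of these were the uneven members. For 17 of the other 19, the top proboscis library was again 1 of the 4: male 2 for 6, female 27 for 6 and female 25 for 5. Female 27 was the top library of no uneven member, and 9 of the 19 had a higher mean in antennae or legs than in proboscis. By the same measure 0.413% of genes were uneven in antennae and 0.322% in legs. The genes most like the uneven group were ranked by Spearman's rho, over the 12 proboscis libraries, with the summed level of the uneven members. In 8 of these libraries that sum was only 3.27 to 52.2 CPM, so the ranks there rest on low levels. In female 11, at 52.2 CPM, 35.5 CPM came from DPOGS202421 alone. Of 10419 genes with a proboscis mean of 1 CPM or more, 26 had a rho of 0.8 or more. Of these 8 were members, all of them uneven and all part of the sum, and 18 were not members. For 8 of these 18 the proboscis mean was below the antennal or the leg mean.

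The broad members also differed between animals. For the 36 with a count in every proboscis library, the highest library was 3.33 to 2072 times the lowest, with a median of 39.7. The lowest library was that of male 20 for 14 of the 46, female 27 for 11, female 11 for 9, male 2 for 8, female 1 for 3 and male 16 for 1. Male 2 was the highest library for 9 broad members and male 20 for 7, so the same animals stood at both ends for different members.

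Members with consecutive identifier numbers occurred as 4 pairs. DPOGS204871 and DPOGS204872 both peaked in male 20, at 71.5 and 42.6 CPM, and had a Spearman's rho of 0.916 over 12 proboscis libraries. DPOGS210969 and DPOGS210970 had a rho of 0.888, DPOGS210442 and DPOGS210443 of 0.851, and DPOGS213733 and DPOGS213734 of 0.839. In the uneven pair the leading library differed: DPOGS210442 had 385 CPM in female 25 and 34.5 CPM in male 16, whereas DPOGS210443 had 209 CPM in female 25 and 225 CPM in male 16. Without male 16 the proboscis mean of DPOGS210443 was 20.9 CPM, against 37.9 CPM with it. DPOGS210969 was the faintest of these genes outside proboscis, with 1.24 to 20.3 CPM in proboscis, no antennal count and 2 counts over all legs. DPOGS213734 had 33.1 to 388 CPM in proboscis, 0 to 36.5 CPM in antennae and 1.34 to 4.51 CPM in legs, so proboscis and antennae overlapped and proboscis and legs did not. Adjacent numbers were not mapped to positions here, and whether the paired genes share reads was not tested.

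The sexes were compared within proboscis, a contrast the choice did not use, and no member was called between females and males. The test was edgeR's quasi-likelihood test with batch as a term, on raw counts, with p-values adjusted over all genes tested and calls at an adjusted p below 0.05. Of the 66 members, 51 passed the filter on low counts, all 46 broad and 5 uneven, and 15 uneven members were not tested. Of the 51 tested, 0 were called, against a background of 0% (0 of 10416 genes). At an unadjusted p below 0.05 there was 1 member of 51, or 1.96%, against a background of 0.902% of all genes. DESeq2 and limma voom also called 0 members. The median log2 fold change of females over males was -0.15 for members and -0.04 for all genes tested.

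The member with the smallest p for higher levels in females was DPOGS212730. It had 3.57 to 105.7 CPM in female proboscis with a median of 23.8 CPM, against 3.59 to 34.8 CPM in male proboscis with a median of 11.1 CPM. The sexes overlapped, with only females 3 and 18 above every male. Its fitted log2 fold change was 1.91 ± 0.85 (SE), with an unadjusted p of 0.0417 and an adjusted p of 0.9999 in edgeR. It was 1.04 without female 18, 0.91 in batch 2 alone and 2.93 in batch 1 alone. DPOGS209424 had medians of 11.1 CPM in females and 6.001 CPM in males. Of the members with lower values in females, DPOGS209335 had medians of 14.6 CPM in females and 26.5 CPM in males, and DPOGS206281 had 5.68 CPM in females and 18.0 CPM in males. The sexes overlapped for each of these 3, and none was below an unadjusted p of 0.05.

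Within batches no member was called between the sexes either. In batch 2 alone, with 3 females and 3 males, 18 of 61 members tested had an unadjusted p below 0.05, against a background of 2.84% of genes. In batch 1 alone it was 15 of 52, against a background of 5.47%. Among the broad members these were 5 of 46 in batch 2, 3 higher and 2 lower in females, and 9 of 46 in batch 1, 5 higher and 4 lower in females. The remaining 13 in batch 2 and 6 in batch 1 were uneven members. Of the 4 libraries that define their pattern, 2 were batch 2 males and 2 were batch 1 females. Both the number of uneven members below this p within a batch and their direction followed from that definition and are no result. The totals of 18 of 61 and 15 of 52 include these members and are not read as a difference between the sexes. Leaving those 4 libraries out, 0 members were called between the sexes and 1 of 48 tested had an unadjusted p below 0.05.

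The batches were compared within proboscis in the same fit, with sex as a term. Of 51 members tested, 0 were called, against a background of 0% (0 of 10416 genes). At an unadjusted p below 0.05 there were 4 members, or 7.84%, against a background of 4% of genes. The log2 fold change of batch 2 over batch 1 was above 0 for 35 of 51 members, with a median of 0.40, against a median of 0.06 over all genes. This lean depended on which animal was left out, with medians from -0.01 without male 15 to 0.86 without female 11. Above 0 were 28 of 56 members without male 15, and 39 of 54 without female 11. Without male 13 it was 31 of 57 with a median of 0.08, and without male 20 30 of 55 with 0.10. Without female 1 it was 43 of 57 with a median of 0.73. These settings tested more members than the main fit, so the members compared were not the same. Without the 4 libraries in which uneven members were high, 26 of 48 members were above 0, with a median of 0.06. Limma voom called 0 members. DESeq2 called 14 genes, 1 of them a member.

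That member was DPOGS208413, which had 78.3 to 5025 CPM in batch 2 with a median of 1237 CPM, against 27.9 to 622 CPM in batch 1 with a median of 167 CPM. The batches overlapped, and males 2 and 12 and females 1 and 3 of batch 2 stood above every batch 1 library. Its log2 fold change was 3.19 ± 0.87 (SE), with an adjusted p of 0.942 in edgeR and of 0.0182 in DESeq2, and 2.59 without male 2. DPOGS210162 also had higher values in batch 2, with 221 to 7247 CPM there, against 259 to 903.5 CPM in batch 1, a log2 fold change of 1.71 ± 0.69 (SE) and an adjusted p of 0.942 in edgeR. Without male 2 this was 1.07. Its batches overlapped, and its batch 2 values spanned a wider range in both directions.

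DPOGS211000 had 101.5 to 191.1 CPM in batch 2, against 191.1 to 338 CPM in batch 1. The highest batch 2 library, female 11, and the lowest batch 1 library, female 18, had the same value to 4 digits, so that the ranges met without overlapping. The log2 fold change was -0.78 ± 0.33 (SE), with an adjusted p of 0.942 in edgeR. Outside proboscis this gene had counts in 2 of 11 antennal libraries with at most 2.44 CPM, and at most 0.282 CPM in legs. DPOGS209399 had medians of 52.5 CPM in batch 2 and 92.3 CPM in batch 1, and its ranges overlapped.

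Which of the other 2 tissues holds more of a member is not set by the choice, and it was tested in a fit of all 35 libraries over sex and tissue with batch as a term. Of the 66 members, 60 passed the filter and 14 were called, or 23.3%, against a background of 51.5% of the 11804 genes tested. In antennae 5 members were higher than in legs, against a background of 25.2% of genes, and 9 were lower, against a background of 26.3%. Members passed this filter partly through proboscis, where the choice made them high, and with antennal and leg libraries only 36 of the 66 passed. Of these 12 were called, 5 higher and 7 lower in antennae, against a background of 50.3% of 11422 genes. The calls comprised 13 of 46 broad members and 1 of 14 uneven members tested. The median log2 fold change of antennae over legs was -0.63 for the 60 members, or -0.45 with members that had no antennal count set at their bound, against 0.00 for all genes. It was -0.23 with antennal and leg libraries only and -0.13 in DESeq2, and it turned to 0.08 in limma voom, where 32 of 60 members were above 0, so no lean of the members to either tissue is read from it. In batch 2 alone 15 of 66 members were called, against a background of 43.6%, and in batch 1 alone 10 of 56, against a background of 38.4%.

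**Figure D5:**
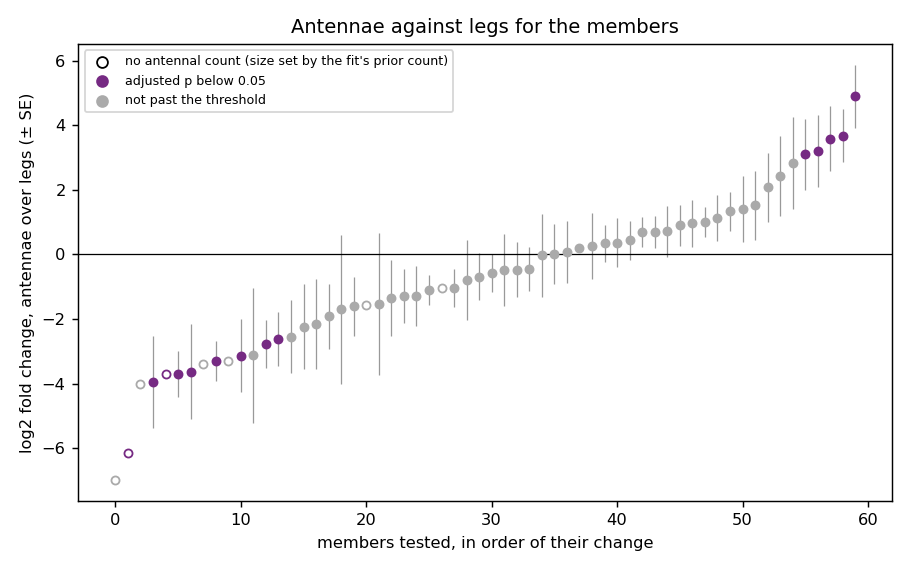
Fitted log2 fold change of antennae over legs for the 60 members tested, in order, with the SE from the quasi-likelihood fit as bars. Purple points are the 14 members past an adjusted p of 0.05, and open points had no antennal count, so their size depends on the prior count and no bar is drawn. Of the called members 5 lie above 0 and 9 below.

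The members that were higher in antennae by the largest fitted change were DPOGS212730 and DPOGS211372. DPOGS212730 had 0 to 12.7 CPM in antennae with counts in 6 of 11 libraries, against 0 to 0.141 CPM in legs with counts in 7 of 12. Female 3 was its highest library in both proboscis and antennae. Its log2 fold change was 4.90 ± 0.97 (SE), with an adjusted p of 9.42e-05 in edgeR. It was 3.17 without female 3 and 4.26 without male 15, with adjusted p-values of 0.00397 and 0.00139, and in batch 1 alone it was 2.85 with an adjusted p of 0.070. DPOGS211372 had 0 to 4.35 CPM in antennae with counts in 6 of 11 libraries, against 0 to 0.170 CPM in legs with counts in 8 of 12. Its log2 fold change was 3.67 ± 0.82 (SE), with an adjusted p of 3.73e-04 in edgeR. For both genes the 6 antennal libraries with a count were above every leg library, and the other 5 were at 0.

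Of the members that were lower in antennae, DPOGS213733 had no antennal count in 11 libraries, against 0.0280 to 1.36 CPM in legs with counts in 12 of 12. Set against the floor of 3 counts over all antennal libraries, it was at least 9.54-fold lower in antennae than in legs. Its adjusted p was 2.42e-04 in edgeR and 0.0565 in limma voom. This gene had a leg median of 0.181 CPM beside no antennal count. It thus passed the filter only through proboscis, where the choice made it high, and nothing is read from its call. DPOGS210475 had counts in 2 of 11 antennal libraries, 7.13 CPM in female 25 and 0.283 CPM in female 1, against 0 to 2.75 CPM in legs with counts in 11 of 12. The female 25 antennae were above every leg library, and the antennal mean of 0.674 CPM rested on them, although the fitted log2 fold change was -3.94 ± 1.42 (SE) with an adjusted p of 0.0219 in edgeR. Without female 25 it was -5.10. In limma voom its adjusted p was 0.080, and in batch 1 alone 0.156.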

How the data were processed

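The deposited values were raw read counts per gene in 1 table of 35 libraries, of 36 samples in the labels, and 0 columns were left unused. Per the submitters' processing notes the authors used limma, featureCounts 1.5.2, HISAT2 2.0.5 and FastQC 0.11.5. Libraries were made with the Illumina TruSeq Stranded mRNA kit from 100 ng of total RNA, per the labels' protocols. Build, annotation, strand setting and handling of multiply mapped reads: not given in the sources used here. Counts of paralogs, near-identical copies and overlapping genes are therefore uncertain.

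CPM used column sums. Tests were run in R 4.3.3 with edgeR 4.0.16 (filterByExpr, TMM, quasi-likelihood test, Benjamini-Hochberg adjustment over all genes tested), with DESeq2 1.42.0 and limma 3.58.1 as alternatives, and were tested on simulated data. SE values derive from the quasi-likelihood F statistic. Tissues of 1 animal are paired by the labelled animal number. The deviations of antennae and legs from their group means correlated with a median of 0.105 over 11 animals, and above 0.1 in 6. In the sex and batch tests within proboscis, where each animal gave 1 library, p-values measure the spread between animals. For antennae against legs, the reported p-values treat the libraries of 1 animal as independent. They measure the spread between libraries within groups and leave the pairing out. The fit with the animal as a replicate block is given only as an alternative.

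Members, lists and naming rules were chosen with earlier results of these data known. Named members were the 2 most abundant, those at the ratio limit, up to 2 per direction by p in the sex and batch tests and by fitted change among calls in antennae against legs, the 2 most and least concentrated in 1 library, the highest in an antennal and in a leg library, and consecutive identifiers. The lists of sensory, cuticle, muscle, neuron, fat body, salivary and tracheal genes were void, since no identifier matched a name. Uneven members and the 4 libraries in which they were high were defined after the values were seen.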

Additional observations from a re-analysis of the deposited data

Results flagged for a closer look

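Within each sex, the proboscis values of each named member were searched for a single library far from the others, by the gap to the nearest library relative to the range (Dixon's test at 95%). The members' share of counts was searched in the same way within each sex and tissue. Such a library was found in 16 of the 48 groups searched, all for single genes and none for the share. Chance alone flags about 1 in 20 groups where values are normally distributed, but the CPM values were searched without a log scale. Some of these genes were also named for their concentration in 1 library (DPOGS213644 and DPOGS210442 in female 25). Their values are therefore a description, and the 16 are not set against that rate.

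Male 2 stood above the other males with 12590 CPM of DPOGS209224, with 5025 CPM of DPOGS208413 and with 7247 CPM of DPOGS210162. Female 1 stood above the other females with 4035 CPM of DPOGS208413 and 2152 CPM of DPOGS210162. Female 25 stood above the other females with 8498 CPM of DPOGS213644, 385 CPM of DPOGS210442 and 209 CPM of DPOGS210443, and male 16 stood above the other males with 225 CPM of DPOGS210443. Male 20 stood above the other males with 71.5 CPM of DPOGS204871, 42.6 CPM of DPOGS204872 and 388 CPM of DPOGS213734. Male 13 stood above the other males with 85.0 CPM of DPOGS211372 and 506 CPM of DPOGS209399. Female 18 had 523 CPM of DPOGS209399 and female 27 had 296 CPM of DPOGS211000, each above the other females. What sets these libraries apart was not tested.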

How the results depend on the processing

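Of 100 settings of the 5 main results, 92 left the value within the replicate SD, or the count within 1.5 times, of that reported. These include the sex and batch settings, where the main fit called 0 of 10416 genes, so a count of 0 had little room to change. The number of members was 114 with a ratio limit of 4, 36 with a limit of 16, 39 with a minimum of 20 CPM and 42 with medians in place of means, of which 32 were among the 66. Leaving out 1 animal gave 58 to 66 members, and 40 of the 66 met the limits in every such setting. Each batch alone gave 70 genes in batch 2 and 64 in batch 1, and 40 members met the limits in both. The members' proboscis share was 2.78% to 3.24% without 1 animal and 1.46% without DPOGS208392. Leaving out 1 animal gave 0 to 0 members called between sexes and between batches, and DESeq2 called 1 member between batches. In antennae against legs the 14 calls became 23 with DESeq2, 8 with limma voom and 13 to 16 without 1 animal. With the animal as a replicate block, 16 members were called. The members' median log2 fold change of antennae over legs turned from -0.63 to 0.08 in limma voom. No log2 fold change of a named gene reversed. The call of a single gene was lost in 4 cases: DPOGS212730 in batch 1 alone, DPOGS213733 in limma voom, and DPOGS210475 in both of these. Why these calls were lost was not tested. The call of DPOGS213733 is not read in any setting, since this gene passed the filter only through proboscis. Without the 4 proboscis libraries that stood apart, an alternative chosen after seeing the data, 20 of 55 members tested were called in antennae against legs. Antennal depth limits statements on absence there, and 15 uneven members had too few counts to be tested in proboscis.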
